A study of Mus musculus with 12 samples.

Results

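The cadherin and protocadherin genes of the mouse were taken as the protein-coding rows whose symbol begins with Cdh and a digit, or with Pcdh, leaving out Cdh5, the vascular endothelial cadherin. They numbered 77 of the 32692 gene rows and comprised 22 cadherins, 43 clustered protocadherins and 12 non-clustered protocadherins. A further 14 rows with matching symbols, among them Pcdhgc3, carried another biotype or none and are described separately. Wild-type, untreated mouse kidneys were profiled by total RNA-seq on day 0 and day 8. The labels list 12 samples, 6 at each age, and 11 libraries were used, 6 of day 0 and 5 of day 8, while 1 day 8 sample is not analysed here. The comparison asks which of these transcripts differ in level between the ages during the neonatal period. The labels give no strain, sex, litter or batch and do not say that each library is a separate animal, so that a p-value speaks only of the spread among these 11 libraries, which may be technical.

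Cadherins are transmembrane proteins whose extracellular repeats bind calcium and, in the classical members, cadherins on the neighbouring cell, while the cytoplasmic tail binds beta-catenin and p120-catenin. Protocadherins lack that catenin-binding tail. The clustered ones are encoded by tandem arrays of variable exons, each with its own promoter, from which neurons choose combinations that give cells a surface identity, and the non-clustered ones are separate genes known mainly from the nervous system. In the developing kidney, nephron progenitors condense and become epithelium, a step during which the set of cadherins on the cells changes, and Cdh16 (Ksp-cadherin) marks the resulting tubules.

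Library totals ranged from 18222170 to 24428652 estimated counts, and 60 of the 77 genes passed the low-count filter. Levels are given in TPM, which corrects for transcript length, and differences in TMM-scaled CPM, the share of a library's counts, with the 5 day 8 values always listed in order of replicate number. A gene is said to have risen or fallen where edgeR's quasi-likelihood test gave a Benjamini-Hochberg adjusted p below 0.05 over all 18763 tested genes. Kidney markers were present at both ages: podocyte markers summed to 286 to 364 TPM at day 0 and 294 to 354 TPM at day 8, and no marker list had a gene at 0 in every library. Of all tested genes 57.6% were called, 27.5% higher and 30.1% lower at day 8, and 10.6% were called with a change of at least 2-fold, 4.83% higher and 5.81% lower. Of the 13992 protein-coding tested genes 63.9% were called, 4326 higher and 4612 lower. Of the 60 tested genes described here, all protein-coding, 8 rose, 21 fell and 31 were not called, a called share of 48.3%. The largest rise was 1.87-fold, and 10 genes fell by at least 2-fold. That count depended on the libraries and the scale. With single libraries left out, the log2 fold changes of Cdh10, Pcdh9 and Pcdh10 came to as little as -0.839, -0.874 and -0.768. On the log2(TPM + 0.1) scale without a filter, Cdh10, Cdh23, Cdh24 and Pcdh10 stood at -0.622, -0.591, -0.974 and -0.855. The median log2 fold change was -0.072, against -0.006 over all tested genes. On the log2(TPM + 1) scale the median over all tested genes was 0.127 and 68.7% of all calls were higher, against 47.8% with TMM; 45 of the 77 genes were then tested, of which 7 rose and 6 fell.

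The calls were counted in each of the 3 classes. Of the 13 tested cadherins 2 rose and 8 fell, and their median was -0.45 on the log2 scale. Among the 35 tested clustered protocadherins 2 rose and 5 fell, all by less than 2-fold, and the median was 0.011. On the log2(TPM + 1) scale limma called 1 of 9 tested cadherins higher and 5 lower, and of 29 tested clustered genes 2 higher and 0 lower, also with 0 lower at an unadjusted p below 0.05. All 12 non-clustered protocadherins changed, 4 upwards and 8 downwards, with a median of -0.45; on the log2(TPM + 1) scale, where 7 of them were tested, 4 rose and 1 fell. These counts are descriptions of the classes, and the differences between classes were not tested.

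**Figure D1:**
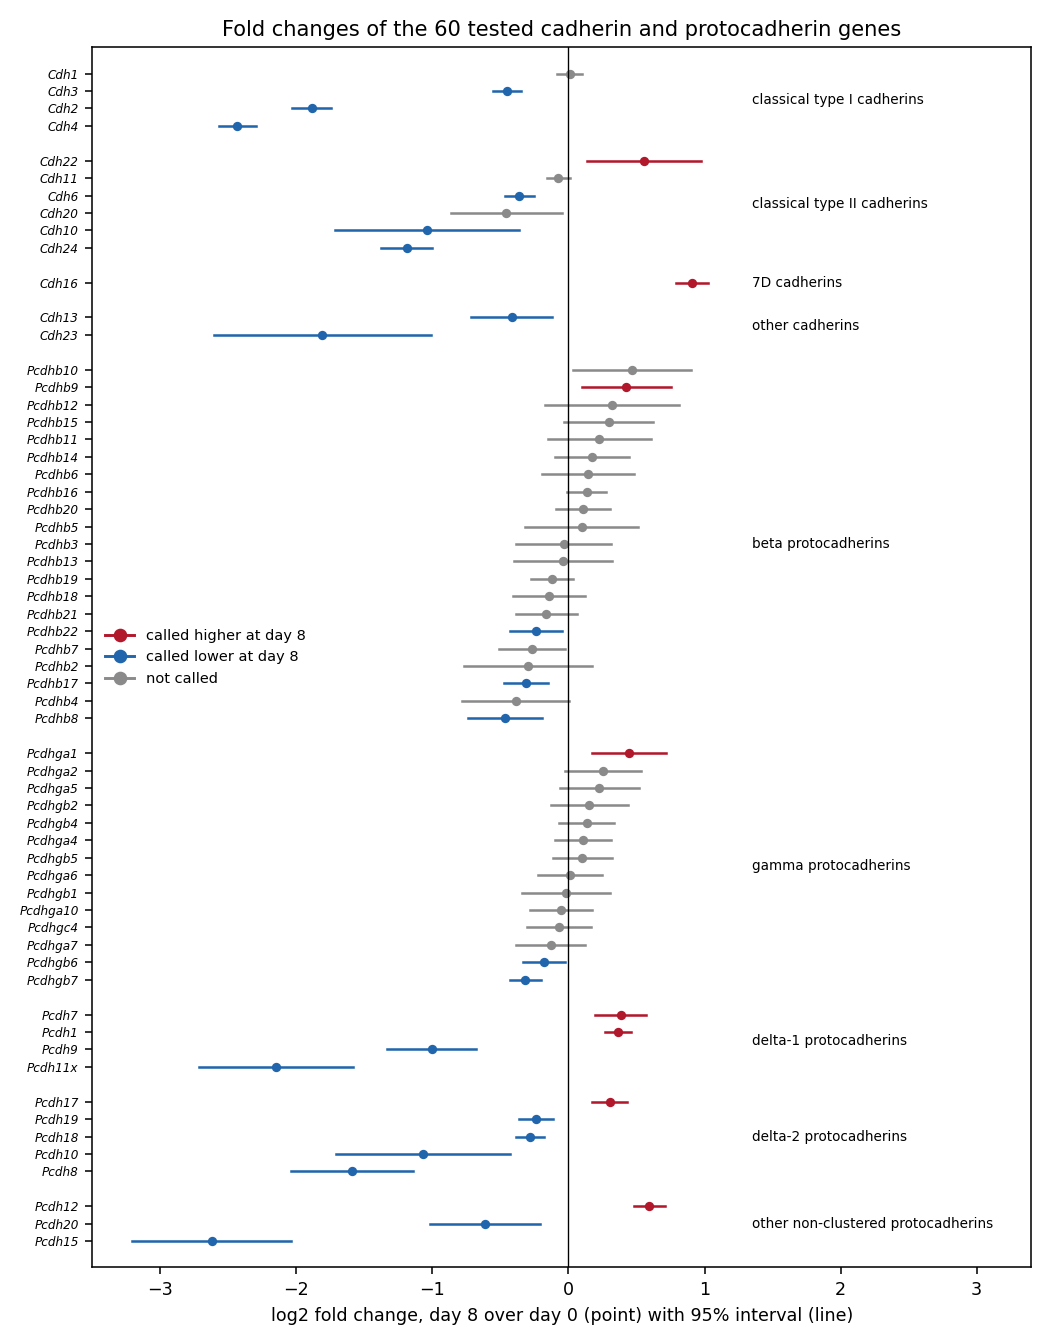
Log2 fold change of day 8 over day 0 (points) with 95% intervals (lines) for the 60 tested genes, grouped by class and coloured by the call. The cadherins and non-clustered protocadherins spread from 0.91 down to -2.62, whereas the clustered protocadherins lie between -0.47 and 0.47.

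Cdh16, a cadherin of tubular epithelial cells with 7 extracellular repeats, had the highest level of all 77 genes at both ages and rose. Its level was 245 ± 16.2 TPM at day 0 (SD, n = 6) and 513 ± 40.6 TPM at day 8 (SD, n = 5). Of the summed TPM of the 77 genes it took 35.9% ± 1.18 at day 0 and 53.1% ± 1.71 at day 8. In CPM, day 0 libraries had a minimum of 479, a median of 489 and a maximum of 541, and the day 8 libraries had 831, 1022, 959, 958 and 866. Every day 8 library thus lay above every day 0 library; of all tested genes 40.5% showed no overlap, 19.1% with day 8 above and 21.4% with day 8 below. The log2 fold change was 0.91 (SE 0.055, adjusted p = 1.82e-09), or 1.87-fold. Markers of the proximal tubule and thick ascending limb moved with it: their summed levels ran from 562 to 906 TPM and from 304 to 384 TPM at day 0, and from 1790 to 2334 TPM and from 916 to 1287 TPM at day 8, with 4 of 5 and 4 of 4 genes higher. Distal tubule and collecting duct markers summed to 324 to 399 TPM at day 0 and 633 to 788 TPM at day 8. Of these 5 genes 2 were called higher and 3 were not called, with a median log2 fold change of 0.206. In bulk tissue, fewer cells of a type and less RNA per cell cannot be told apart, and the part of cell composition in this and the following results was not tested.

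The classical type I cadherins went 3 down and 1 without a call. Cdh4 (R-cadherin), known from nephron progenitors and early nephron structures, fell most. It stood between 45.4 and 51.5 CPM at day 0, with a median of 50.4, and at 8.20, 10.6, 9.36, 9.08 and 8.87 CPM at day 8. All day 8 libraries were below all day 0 libraries, and the log2 fold change was -2.43 (SE 0.065, adjusted p = 1.61e-13), a 5.40-fold lower level. In TPM its level was 10.3 ± 1.11 at day 0 and 2.33 ± 0.56 at day 8.

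Cdh2 (N-cadherin), the cadherin of mesenchymal and neural cells that is also found in the kidney's proximal tubule, fell as well. Its day 0 libraries ranged from 47.8 to 53.6 CPM around a median of 51.7, and the day 8 libraries had 16.3, 13.8, 12.01, 13.8 and 13.1 CPM. The ranges did not overlap, and the log2 fold change was -1.89 (SE 0.069, adjusted p = 5.58e-12), or 3.70-fold lower. Beside both falls, the summed level of 5 nephron progenitor markers was 65.0 to 82.3 TPM at day 0 and 12.9 to 27.1 TPM at day 8, with 4 of 5 genes lower. The summed level of 8 neuron markers was 5.95 to 9.14 TPM at day 0 and 1.41 to 2.06 TPM at day 8, with 3 of the 4 tested genes lower. Other lists went the other way. Proximal tubule markers summed to 562 to 906 TPM at day 0 and 1790 to 2334 TPM at day 8, with 4 of 5 genes higher. Stroma markers summed to 715 to 902 TPM and 1071 to 1256 TPM, with 5 of 8 genes higher and 3 lower. Schwann cell markers summed to 17.6 to 20.7 TPM and 27.5 to 38.1 TPM, with 2 of the 5 tested genes higher.

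Cdh1 (E-cadherin), the cadherin of epithelial cells, had similar levels in both age groups. Day 0 libraries ran from 301 to 334 CPM with a median of 313, and day 8 libraries had 295, 329, 342, 309 and 308 CPM, so that the ranges overlapped. The log2 fold change was 0.009 with a 95% interval from -0.083 to 0.102 (adjusted p = 0.87). The sign of this value depended on the scaling and on which library was left out, and ran from -0.053 with library size alone to 0.149 on the log2(TPM + 0.1) scale without a filter. Set against E-cadherin within each library, N-cadherin made up 0.167 ± 0.0055 of its TPM at day 0 and 0.0461 ± 0.0076 at day 8, and R-cadherin 0.120 ± 0.0056 and 0.0245 ± 0.0057. Cdh16 stood at 2.85 ± 0.080 times E-cadherin at day 0 and 5.39 ± 0.285 times at day 8. None of these 3 ratios overlapped between the ages.

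**Figure D2:**
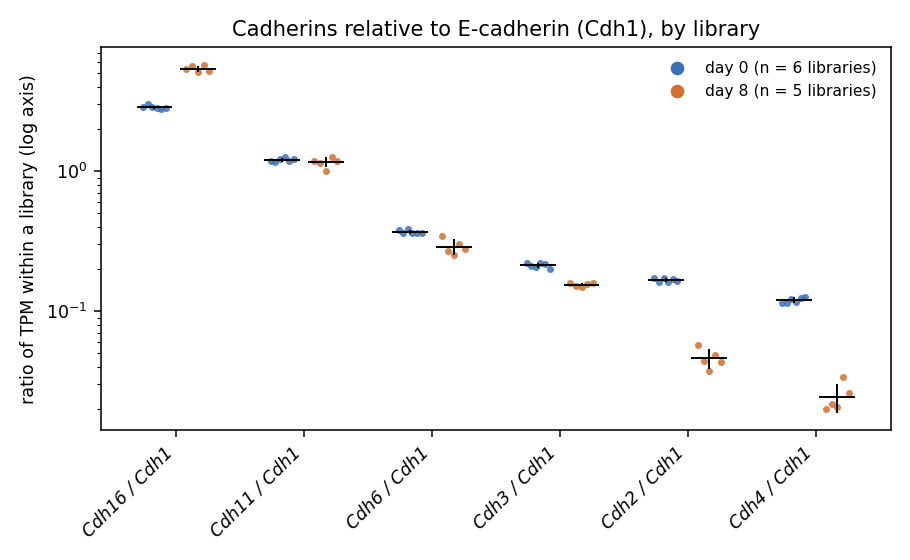
Ratio of each cadherin's TPM to that of E-cadherin (Cdh1) within a library, on a log axis, for 6 day 0 and 5 day 8 libraries, with mean and SD. The Cdh2 and Cdh4 ratios are lower in all day 8 libraries than in all day 0 libraries, the Cdh16 ratio is higher in all of them, and the Cdh11 ratio overlaps.

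Cdh3 (P-cadherin), an epithelial cadherin, also fell. It ran from 61.99 to 71.3 CPM around a median of 68.9 at day 0 and stood at 46.9, 50.5, 51.3, 48.03 and 49.5 CPM at day 8. The log2 fold change was -0.45 (SE 0.047, adjusted p = 7.47e-07), with no overlap. On the TPM scale its ranges overlapped, with 18.3 ± 1.60 at day 0 and 14.7 ± 1.26 at day 8, and the difference was -0.291 on the log2(TPM + 1) scale, where it was still called (limma, adjusted p = 0.00887). Cdh15 (M-cadherin), the cadherin of muscle satellite cells, did not pass the low-count filter. It had 6, 1, 4, 3, 9 and 5 counts in the day 0 libraries and 1, 0, 0, 0 and 0 in those of day 8. Skeletal muscle markers summed to 2.21 to 12.9 TPM at day 0 and 0.062 to 0.742 TPM at day 8, with both tested genes lower.

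**Figure D3:**
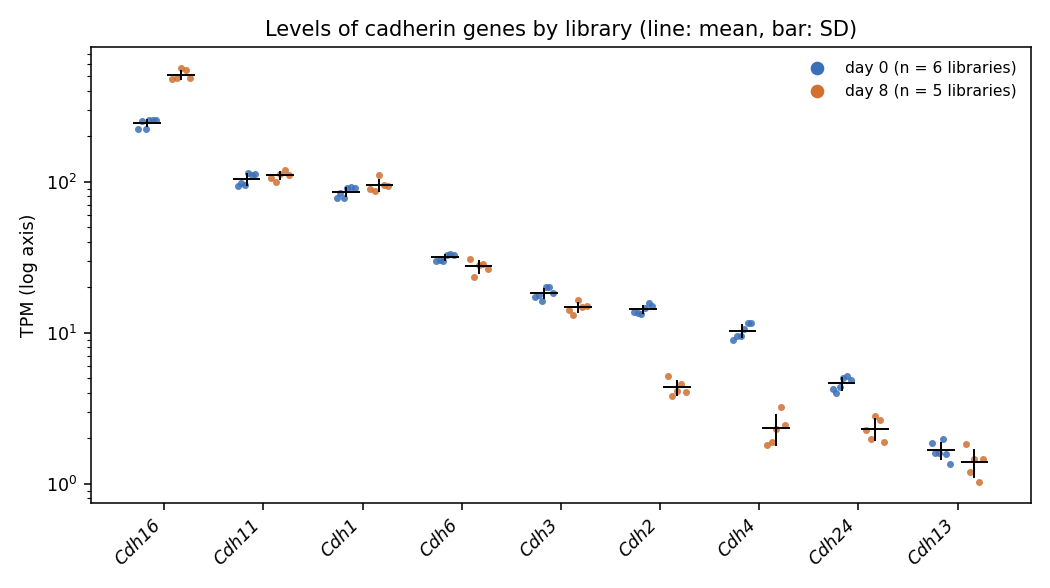
TPM per library of 9 cadherin genes on a log axis, with mean and SD, for 6 day 0 and 5 day 8 libraries. Cdh16 lies above all others at both ages, Cdh11 and Cdh1 follow with overlapping ages, and Cdh2 and Cdh4 are lower at day 8 in every library.

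Of the classical type II cadherins, 1 rose, 3 fell, 2 were not called and 6 were not tested. Cdh6 (K-cadherin), known from early nephrons and proximal tubule precursors, fell slightly. Its day 0 libraries ranged from 207 to 226 CPM with a median of 213, and day 8 libraries had 190, 163, 157, 167 and 157 CPM. The log2 fold change was -0.36 (SE 0.048, adjusted p = 1.12e-05), with no overlap, and in TPM 31.6 ± 1.67 stood against 27.5 ± 2.80. The call was lost on the log2(TPM + 0.1) scale without a filter, at -0.204 (limma, adjusted p = 0.0687). Cdh24 ran from 11.8 to 12.9 CPM around a median of 12.5 at day 0 and had 5.28, 5.36, 5.75, 6.21 and 4.44 CPM at day 8, all below day 0. Its log2 fold change was -1.19 (SE 0.088, adjusted p = 1.44e-08), a 2.28-fold lower level, and -0.764 on the log2(TPM + 1) scale. Cdh10 was low at both ages, with 0.519 to 1.26 CPM and a median of 0.662 at day 0 and 0.215, 0.344, 0.320, 0.333 and 0.615 CPM at day 8. The ages overlapped, and the log2 fold change was -1.04 (SE 0.319, adjusted p = 0.011); its call was lost at -0.622 on the log2(TPM + 0.1) scale without a filter (limma, adjusted p = 0.119) and without day 0 replicates 1 to 3 (adjusted p = 0.0559).

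Cdh11, the cadherin of mesenchymal and stromal cells, was the highest type II cadherin at 104 ± 9.53 TPM at day 0 and 110 ± 7.44 TPM at day 8. Its CPM ranged from 443 to 468 around a median of 447 at day 0, and was 420, 440, 403, 451 and 431 at day 8, which overlapped. The log2 fold change was -0.074 with a 95% interval from -0.156 to 0.009 (adjusted p = 0.118). Its sign depended on the scaling, with 0.084 on the log2(TPM + 1) scale and -0.137 with library size alone, where it was called (adjusted p = 0.0069). Stroma markers summed to 715 to 902 TPM at day 0 and 1071 to 1256 TPM at day 8, with 5 of 8 genes higher and 3 lower. Cdh20 was not called at -0.46 (adjusted p = 0.0515) but passed without day 0 replicate 5 or day 8 replicate 2 or 3 (adjusted p = 0.0374, 0.0156 and 0.0385), and with all libraries under limma-voom (adjusted p = 0.0323) or with library size alone (adjusted p = 0.0249). Cdh22 rose by 0.55 (adjusted p = 0.0239) with overlap between the ages, and its call was lost without day 0 replicate 1 or 5 or day 8 replicate 3 (adjusted p = 0.0534, 0.0507 and 0.0632), without day 0 replicates 1 to 3 (adjusted p = 0.174) and without day 8 replicates 3 to 5 (adjusted p = 0.214). Cdh7, Cdh8, Cdh9, Cdh12, Cdh18 and Cdh19 had at most 13 counts in any library.

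The remaining cadherins were low. Cdh23, a long cadherin of hair cell tip links, fell, with 0.493 to 1.40 CPM around a median of 0.816 at day 0 and 0.172, 0.0491, 0.411, 0.292 and 0.264 CPM at day 8. The ranges did not overlap in CPM, though they rested on 1 to 27 counts per library, and in TPM they did overlap. Its log2 fold change was -1.81 (SE 0.374, adjusted p = 0.00065), and -0.591 on the log2(TPM + 0.1) scale, where it was not called (limma, adjusted p = 0.394); without day 8 replicates 3 to 5 it was -2.838. Cdh13, the cadherin with a lipid anchor in place of a tail, fell by 0.42 on the log2 scale (adjusted p = 0.0184), with overlap between the ages, and lost its call without day 8 replicate 4 (adjusted p = 0.0555), without day 0 replicates 1 to 3 (adjusted p = 0.285), without day 8 replicates 3 to 5 (adjusted p = 0.163) and on the TPM scales (limma, adjusted p = 0.297 to 0.324). Cdh17 and Cdh26 had at most 10 counts in a library and were not tested.

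The clustered protocadherins lie in 3 arrays on chromosome 18, all on the plus strand. In GRCm38 coordinates of GENCODE vM21, the alpha genes span 36930184 to 37187661, the beta genes 37264938 to 37524479, and the gamma genes 37661793 to 37841873. The alpha and gamma genes each join a variable exon to shared constant exons, whereas the beta genes have no constant exon. All 13 alpha and all 22 gamma rows have an exon of identical coordinates in common, and no beta row shares such an exon. The beta genes Pcdhb21 (37513621 to 37518325) and Pcdhb22 (37517871 to 37524479) nevertheless overlap in position. The counts of both were not whole in any of the 11 libraries. Values above 0 that were not whole made up 96.6% of the alpha values and 98.1% of the gamma values, against 24.4% for beta and 11.8% for all protein-coding rows. Reads of alpha and gamma genes had thus been divided among genes, and levels of single genes in those arrays are uncertain. The same limit applies to beta genes with such values. Among them are Pcdhb8, Pcdhb9 and Pcdhb17, in some libraries, and Pcdhb22.

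As a group the clustered protocadherins kept similar sums at the 2 ages. The 22 beta genes summed to 127 ± 5.31 CPM at day 0 and 125 ± 11.1 CPM at day 8, a ratio of 0.985. The 14 gamma genes summed to 143 ± 11.03 CPM and 142 ± 7.13 CPM, a ratio of 0.989. On the TPM scale the same sums had ratios of 1.10 and 1.10, with 34.3 ± 3.53 and 37.8 ± 4.53 TPM for beta and 39.4 ± 5.94 and 43.5 ± 5.27 TPM for gamma. The direction of the sums therefore depended on the scaling, by less than their SD in each case. The 7 alpha genes were barely detected, at 1.32 ± 0.546 CPM and 1.17 ± 0.454 CPM in sum, and none was tested.

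Of the 35 tested clustered genes 20% were called, while among the 7775 tested genes of the same CPM range 51% were called. The 28 genes without a call had log2 fold changes between -0.39 and 0.47 and 95% intervals that reached from -0.78 to 0.90 at their widest, and 18 of them had an interval within 0.5 either way. Mean CPM ran from 1.19 to 21.4 among the tested genes.

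**Figure D4:**
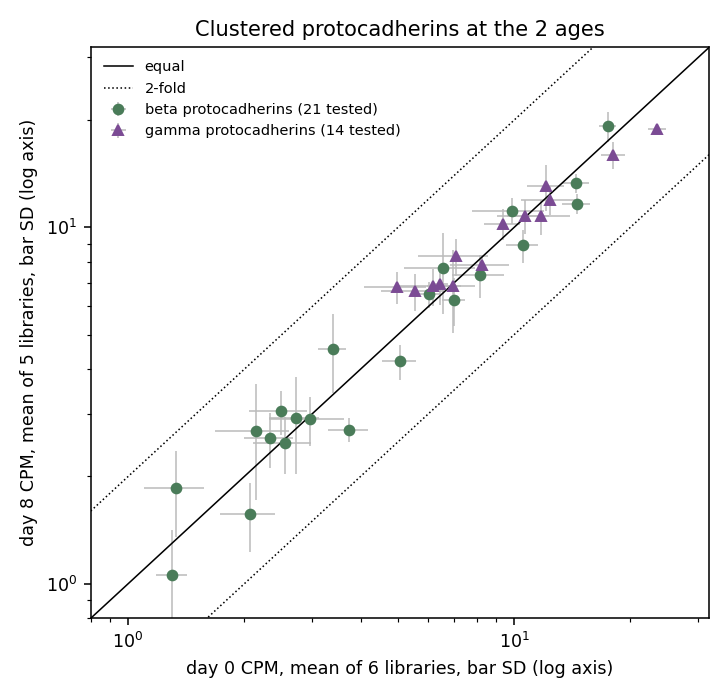
Mean CPM of the 35 tested clustered protocadherins at day 0 and day 8 on log axes, with SD bars, the line of equality and dotted lines at 2-fold. All points lie within the 2-fold lines, and the summed beta and gamma levels have CPM ratios of 0.985 and 0.989.

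Among the called clustered genes, Pcdhgb7 ran from 21.1 to 24.5 CPM around a median of 23.7 at day 0 and had 19.6, 18.6, 19.2, 18.7 and 18.1 CPM at day 8. Its log2 fold change was -0.32 (SE 0.054, adjusted p = 0.000122), without overlap in CPM but with overlap in TPM, where it was not called (limma on log2(TPM + 1), -0.144, adjusted p = 0.202). Pcdhb8 fell by 0.47 (adjusted p = 0.00508), with 3.07 to 4.33 CPM around a median of 3.81 at day 0 and 2.49, 2.56, 3.01, 2.67 and 2.81 CPM at day 8. Its log2(TPM + 1) difference was 0.001 and was not called. Pcdhga1 rose by 0.45 (SE 0.128, adjusted p = 0.00722), with 3.999 to 6.38 CPM around a median of 4.81 at day 0 and 6.27, 6.98, 7.85, 5.999 and 6.90 CPM at day 8, which overlapped. Pcdhb10, which had the largest estimate among the beta genes at 0.47, was not called (adjusted p = 0.062), with 1.09 to 1.69 CPM and a median of 1.32 at day 0 and 2.45, 2.06, 1.28, 1.37 and 2.11 CPM at day 8. It passed without day 0 replicate 1 or day 8 replicate 3 or 4 (adjusted p = 0.0398, 0.0262 and 0.0343). The other called genes were Pcdhb17, Pcdhb22 and Pcdhgb6, which fell by 0.18 to 0.32 on the log2 scale, and Pcdhb9, which rose by 0.43. Pcdhb9 lost its call without day 0 replicate 5 or day 8 replicate 1 or 2 (adjusted p = 0.0535, 0.0928 and 0.0678), without day 0 replicates 1 to 3 (adjusted p = 0.0547) and with library size alone (adjusted p = 0.0531). Pcdhb22 lost it without day 0 replicate 1, 3, 4 or 5 or day 8 replicate 2 or 5 (adjusted p = 0.0515 to 0.101), and Pcdhgb6 without each single library except day 0 replicate 2 and day 8 replicate 5 (adjusted p = 0.0553 to 0.116). Pcdhga1 and Pcdhb17 lost theirs without day 0 replicates 1 to 3 (adjusted p = 0.0768 and 0.0511) and without day 8 replicates 3 to 5 (adjusted p = 0.0857 and 0.0605). DESeq2 called neither Pcdhb22 nor Pcdhgb6 (adjusted p = 0.0588 and 0.0715), and on the log2(TPM + 1) scale Pcdhb17, Pcdhb22 and Pcdhgb6 were not called at -0.126, -0.184 and -0.027.

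Of the 14 rows left out by biotype, 9 were tested, with adjusted p-values between 0.189 and 0.926. The highest of them, Pcdhgc3, is a C-type gamma protocadherin. It stood at 42.3 ± 1.67 TPM at day 0 and 46.5 ± 4.22 TPM at day 8; its log2 fold change was -0.02, and the 95% interval ran from -0.119 to 0.074 (adjusted p = 0.69); on the log2(TPM + 1) scale the difference was 0.129 and not called. With the left-out rows the gamma sum had a CPM ratio of 0.985.

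The delta-1 protocadherins, which carry conserved motifs in their tails, divided. Pcdh1 rose, with 61.9 to 67.6 CPM around a median of 64.4 at day 0 and 76.4, 81.6, 89.9, 84.2 and 84.5 CPM at day 8, without overlap. Its log2 fold change was 0.37 (SE 0.045, adjusted p = 4.27e-06). Pcdh7 rose as well, with 48.5 to 65.5 CPM around a median of 59.6 at day 0 and 87.5, 72.7, 65.5, 87.03 and 71.1 CPM at day 8, where the lowest day 8 library fell within the day 0 range, and the log2 fold change was 0.38 (SE 0.087, adjusted p = 0.00177). Pcdh9 and Pcdh11x, both known from neurons, fell. Pcdh9 had 5.01 to 7.46 CPM, with a median of 6.43, at day 0 and 3.22, 3.49, 3.65, 2.04 and 3.601 CPM at day 8. Its log2 fold change was -1.003 (SE 0.153, adjusted p = 4.08e-05). Pcdh11x, on the X chromosome, had 1.04 to 1.48 CPM, with a median of 1.12, at day 0 and 0.129, 0.393, 0.320, 0.292 and 0.176 CPM at day 8, with -2.15 on the log2 scale (SE 0.265, adjusted p = 4.39e-06) or 4.44-fold lower. On the log2(TPM + 0.1) scale without a filter the Pcdh11x difference was -1.214 (limma, adjusted p = 0.000768). Neither gene overlapped between the ages.

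The delta-2 protocadherins showed 1 higher and 4 lower. Promoter sequence was found in RefSeq (GRCm38.p6) for 22 of the 77 genes, including all 5 delta-2 genes. CCAAT, searched on both strands of windows of 300 bases, was in 15 of the 22 and in all 5 delta-2 promoters. It was in 41.1% of the 27025 genes that have a promoter entry in that RefSeq set, which is the background for each motif below. The promoters of Pcdh8 and Pcdh17 are shown because both carry CCAAT while their transcripts moved in opposite directions. The TATA motif TATAAA was in 2 of the 22 and in 15.7% of the 27025 genes, and the GC box GGGCGG in 9 of the 22 and in 38.2%. CAGGTG, the letters to which Snail and Zeb factors bind, was in 3 of the 22 and in 22.6%. Matches are descriptions of the letters and not of binding. The 250 bases before each annotated start are printed 5′ to 3′ on the gene's strand, with these CCAAT (read as ATTGG on the other strand), TATAAA and GC box letters in capitals.
Pcdh8, chr14:79771313-79771562, minus strand: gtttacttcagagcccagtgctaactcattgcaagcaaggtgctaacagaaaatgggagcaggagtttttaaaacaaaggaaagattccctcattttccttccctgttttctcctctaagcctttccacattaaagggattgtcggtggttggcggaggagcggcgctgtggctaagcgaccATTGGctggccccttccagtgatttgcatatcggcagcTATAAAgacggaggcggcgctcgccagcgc
Pcdh17, chr14:84443313-84443562, plus strand: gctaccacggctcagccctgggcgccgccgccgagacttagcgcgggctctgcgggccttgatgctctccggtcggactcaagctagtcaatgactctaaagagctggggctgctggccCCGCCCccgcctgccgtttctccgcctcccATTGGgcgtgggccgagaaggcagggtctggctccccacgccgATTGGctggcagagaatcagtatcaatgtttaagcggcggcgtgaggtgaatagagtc

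Pcdh8, named paraxial protocadherin for its part in somites, fell, with 2.51 to 4.60 CPM around a median of 3.24 at day 0 and 0.730, 1.18, 0.959, 1.62 and 1.10 CPM at day 8. Every day 8 library was below every day 0 library, and the log2 fold change was -1.59 (SE 0.211, adjusted p = 9.42e-06) or 3.02-fold lower. Pcdh17 rose, with 67.7 to 82.99 CPM around a median of 76.03 at day 0 and 104, 94.2, 87.1, 95.2 and 83.7 CPM at day 8. Here the day 8 libraries were all above those of day 0, and the log2 fold change was 0.30 (SE 0.059, adjusted p = 0.00042), and 0.461 on the log2(TPM + 0.1) scale. Pcdh10 had 1.99 to 5.63 CPM around a median of 2.32 at day 0 and 1.16, 1.03, 1.19, 1.67 and 2.15 CPM at day 8, with overlap. It fell by 1.07 on the log2 scale (SE 0.298, adjusted p = 0.00663), a call lost on the log2(TPM + 0.1) scale without a filter (limma, adjusted p = 0.0632). Pcdh18, the highest delta-2 gene at 26.5 ± 2.28 TPM at day 0, ran from 103 to 120 CPM around a median of 111 at day 0 and stood at 95.3, 87.8, 87.9, 99.1 and 89.2 CPM at day 8. It fell by 0.28 (adjusted p = 0.000128), and Pcdh19 by 0.24 (adjusted p = 0.0023); on the log2(TPM + 1) scale their differences were -0.14 and -0.03 and not called, and Pcdh19 also lost its call without day 8 replicates 3 to 5 (adjusted p = 0.127).

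The other non-clustered protocadherins included the endothelial Pcdh12, which rose, with 41.03 to 47.7 CPM around a median of 46.3 at day 0 and 72.4, 68.5, 66.5, 72.2 and 62.5 CPM at day 8. The ranges did not overlap, and the log2 fold change was 0.60 (SE 0.052, adjusted p = 9.88e-08) or 1.51-fold. Endothelial markers rose beside it, with all 7 of 7 genes higher and summed levels of 284 to 353 TPM at day 0 and 441 to 521 TPM at day 8. Relative to Cdh5 within a library, Pcdh12 stood at 0.211 ± 0.0173 at day 0 and 0.283 ± 0.0235 at day 8, again without overlap, and Pcdh17 at 0.156 ± 0.0099 and 0.1697 ± 0.0137, which overlapped. Cdh5 had the smallest rise of the 7 endothelial markers, 0.217 on the log2 scale, against a median of 0.48 and a maximum of 0.595. Ratios to the other endothelial markers were not taken. Pcdh15, a partner of Cdh23 in hair cell tip links, had the lowest log2 fold change of the 60 tested genes on the count scale, though not on the TPM scale. It had 0.866 to 1.72 CPM, with a median of 1.29, at day 0 and 0.258, 0.0983, 0.228, 0.167 and 0.264 CPM at day 8, on 2 to 33 counts per library. The ranges did not overlap in CPM, though they did in TPM, and the log2 fold change was -2.62 (SE 0.276, adjusted p = 7.8e-07). In TPM it had 0.295 ± 0.135 at day 0 and 0.0996 ± 0.123 at day 8, and on the log2(TPM + 0.1) scale without a filter the difference was -1.087 (limma, adjusted p = 0.0396), against -2.118 for Cdh4. Pcdh20, with 0.934 to 1.51 CPM at day 0 and 0.639 to 0.859 CPM at day 8, fell by 0.61 (adjusted p = 0.0113); the call did not hold without day 0 replicates 1 to 3 (adjusted p = 0.0887) or day 8 replicates 3 to 5 (adjusted p = 0.11), nor on the log2(TPM + 0.1) scale without a filter, at -0.319 (limma, adjusted p = 0.294).

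**Figure D5:**
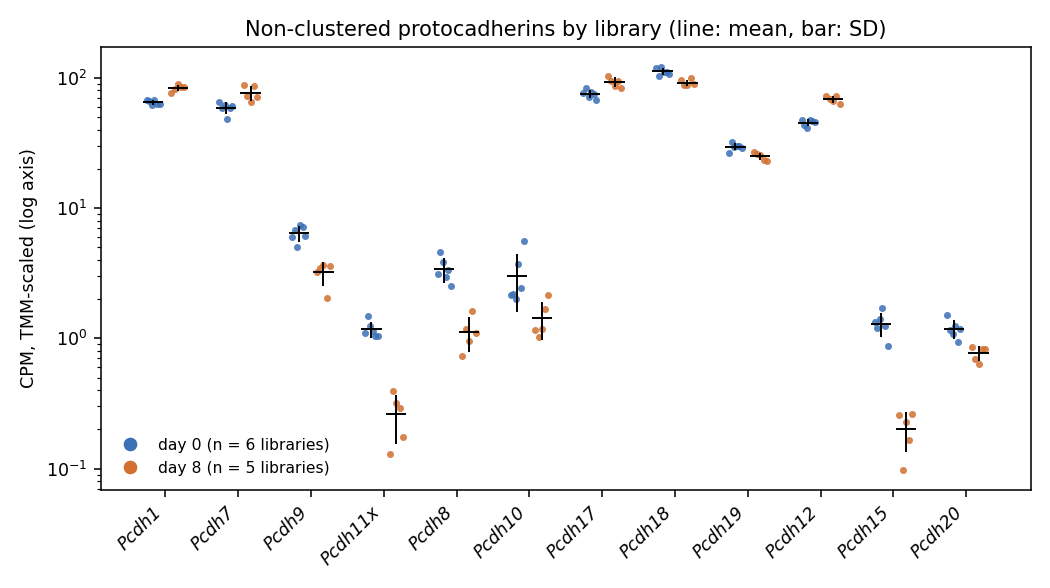
CPM per library of the 12 non-clustered protocadherins on a log axis, with mean and SD, for 6 day 0 and 5 day 8 libraries. Pcdh1, Pcdh17 and Pcdh12 are higher in every day 8 library than in any day 0 library, and Pcdh9, Pcdh11x, Pcdh8, Pcdh18, Pcdh15 and Pcdh20 are lower.

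Genes that act with the cadherins were taken from lists that hold none of the 77 genes. Of all tested genes 57.6% were called, at a median of 353.9 counts per library, and of the protein-coding ones 63.9%, at 573.8. The lists below, in order, had called shares of 75%, 85.7%, 91.7%, 75% and 71.4% of their tested genes. Their median counts per library were 1669, 623.2, 2498, 1741 and 1628. Differences from the background shares were not tested. Of 20 catenins and other adherens junction genes, 12 rose and 3 fell; Jup, plakoglobin, rose by 0.32 from 122 ± 11.99 TPM to 176 ± 16.96 TPM, and Ctnnb1, beta-catenin, was not called at -0.071 with 270 ± 17.8 TPM and 283 ± 20.9 TPM. The neural catenin Ctnnd2 fell by 2.71, from 3.08 ± 0.674 TPM to 0.528 ± 0.063 TPM, and Ctnna2 rose by 2.66 at 0.118 ± 0.116 TPM and 0.739 ± 0.158 TPM. Of 14 regulators of cadherin transcription 4 rose and 8 fell; Snai2, a repressor of E-cadherin, fell by 1.01 to 12.5 ± 0.792 TPM from 22.9 ± 1.69 TPM, and Zeb2, another repressor, rose by 0.39 to 137 ± 16.6 TPM from 94.7 ± 8.16 TPM. Grhl1, a grainyhead factor of epithelia, fell by 0.81 from 1.91 ± 0.221 TPM to 1.21 ± 0.132 TPM. Of 12 genes for the architecture and silencing of the protocadherin arrays, 11 fell and 1 was not called, while on the log2(TPM + 1) scale 2 fell and the other 10 were not called. Among them the cohesin subunit Smc3 fell by 0.58 from 29.999 ± 2.80 TPM to 23.5 ± 1.96 TPM, and the histone methyltransferase Setdb1 fell by 0.44 from 20.7 ± 2.22 TPM to 16.99 ± 1.16 TPM. The cohesin subunit Rad21 fell by 0.23, with 91.1 ± 5.77 TPM and 85.6 ± 8.07 TPM, a call lost on the log2(TPM + 1) scale (limma, adjusted p = 0.345). The DNA methyltransferase Dnmt3a was not called at 0.014, a value whose sign depended on the scaling. Of 8 genes for processing and cleavage of cadherins 4 rose and 2 fell, and the membrane metalloproteinase Mmp14 fell by 0.55 from 86.8 ± 6.22 TPM to 66.5 ± 4.98 TPM. The proprotein convertases Furin and Pcsk6 rose by 0.26 and 0.27, Furin from 69.6 ± 4.78 TPM to 91.3 ± 8.76 TPM and Pcsk6 from 8.62 ± 1.22 TPM to 12.8 ± 1.74 TPM. Of 24 other cadherin superfamily genes, 21 of them tested, 7 rose and 8 fell; Cdhr5, a brush border cadherin, rose by 1.54 from 25.7 ± 4.32 TPM to 82.2 ± 8.77 TPM. Cdhr1, known from photoreceptors, fell by 3.33 (adjusted p = 8.13e-08) from 0.434 ± 0.0637 TPM to 0.0452 ± 0.0209 TPM, with -1.881 on the log2(TPM + 0.1) scale. The calsyntenin Clstn1 was not called at 0.065 (adjusted p = 0.248), with 60.6 ± 7.83 TPM and 74.2 ± 7.04 TPM, but was on the log2(TPM + 1) scale at 0.293 (limma, adjusted p = 0.0182). The atypical cadherin Fat1 was not called at 0.10 (adjusted p = 0.0805) but was with DESeq2 (adjusted p = 0.0127).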

How the data were processed

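The authors deposited 2 tables, of estimated counts and of TPM (scaled by them for length and library total), for 32692 gene rows; per the submitters' processing notes, the tools were DRAGEN, FastQC, Picard and fastp, with mm10 as the build and no roles stated. Per the labels' protocols, the libraries were stranded total RNA with ribosomal RNA removal; strand use in counting is not given in these sources, and 13 of the 77 genes overlap an exon on the opposite strand (GENCODE vM21), among them Pcdh7, Pcdh8, Pcdh10 and Pcdh19. The estimated counts were rounded before testing. edgeR 4.0.16 in R 4.3.3 fitted TMM-scaled, filterByExpr-filtered counts with robust quasi-likelihood and age as the only term; Benjamini-Hochberg adjustment ran over all 18763 tested genes with a threshold of 0.05. Alternatives were DESeq2 1.42.0, limma 3.58.1 (voom, and log2 TPM with pseudocounts of 1 and 0.1), other scalings and low-count filters, Xist as a covariate, a threshold of 0.01 and libraries left out. The tests planned for 6 against 6 libraries ran on 6 against 5. Any 2 libraries of an age differed beyond counting noise (chi-square divided by its degrees of freedom, 4.95 to 45.5), so none was treated as a duplicate. The highest values, 27 to 45.5, were those of day 8 replicate 2 with each other day 8 library. Such values cannot tell whether 2 libraries came from the same animal. Named members are those called with a log2 change of at least 1, those with a mean TPM of at least 5, and the most changed of each class; of each list that holds no members, the 2 genes with the highest TPM and the 2 called genes with the largest change, except for a result that is not reported here. Members and lists were chosen with earlier results of these data known. Errors are SD over libraries, or SE where named.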

Additional observations from a re-analysis of the deposited data

Results flagged for a closer look

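Of the 120 groups of libraries examined (60 genes at each of 2 ages), 7 had a library far from the others by Dixon's test in CPM, where chance alone flags about 1 in 20 groups. Day 0 replicate 6 was low for Cdh4, at 45.4 CPM against 50 to 51.5 CPM in the others, for Pcdhb17, at 12.2 CPM against 14.5 to 15.7 CPM, and for Pcdhgb4, at 7.36 CPM against 9.42 to 10 CPM. Day 0 replicate 2 was high for Cdh16, at 541 CPM against 479 to 492.9 CPM. Day 0 replicate 3 was high for Pcdhb22, at 12.5 CPM against 9.83 to 10.3 CPM. Day 8 replicate 4 was low for Pcdhb19, at 11.8 CPM against 13.4 to 13.9 CPM, and for Pcdh9, at 2.04 CPM against 3.22 to 3.65 CPM.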

How the results depend on the processing

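No paired analysis was possible because the labels give no replicate numbers and the libraries were numbered in accession order. Of the 29 called genes, 13 were called in the same direction under every alternative that gave a value: Cdh16, Pcdh1, Pcdh7, Pcdh12 and Pcdh17 higher, and Cdh2, Cdh3, Cdh4, Cdh24, Pcdh8, Pcdh9, Pcdh11x and Pcdh15 lower. On the log2(TPM + 1) and log2(TPM + 0.1) scales with a mean TPM of at least 1, and on log2(TPM + 0.1) without a filter, members called lower numbered 6, 6 and 9 in place of 21, cadherins lower 5, 5 and 5 in place of 8, clustered lower 0, 0 and 0 in place of 5 (limma; 0 on each scale also at an unadjusted p below 0.05), and non-clustered lower 1, 1 and 4 in place of 8; cadherins higher numbered 1 on both filtered TPM scales. The filters leave fewer genes (45 of the 77), and over all genes 68.7% of calls were higher on log2(TPM + 1), with a median of 0.13, against 47.8% with TMM; library size alone gave 39.5%. Clustered lower numbered 3 with DESeq2, 8 with library size alone, 3 without a low-count filter and 3 at an adjusted p of 0.01, and clustered higher 1 with library size alone and 1 at 0.01, where cadherins higher also numbered 1. Alternatives chosen after seeing the data left out day 8 libraries 3 to 5, which have more RNA of fat genes, or day 0 libraries 1 to 3, in which the gene with the highest TPM takes a larger share. The former gave 1 cadherin higher and 3 clustered lower, the latter 5 members higher, 1 cadherin higher, 0 clustered higher (edgeR; 2 at an unadjusted p below 0.05) and 2 clustered lower. Leaving out each library in turn gave 6 to 9 members higher, 19 to 22 lower, 1 to 2 cadherins higher, 7 to 9 lower, 1 to 3 clustered higher and 3 to 5 lower, and 4 and 8 non-clustered in each case. Cadherins higher fell to 1 without day 0 replicate 1 or 5 or day 8 replicate 3, where Cdh22 lost its call. Clustered higher fell to 1 without day 0 replicate 5 or day 8 replicate 1 or 2, and clustered lower to 3 without day 0 replicate 1, 3, 4 or 5 or day 8 replicate 2. Cdh1 reversed to -0.053 with library size alone, to -0.007 without day 8 libraries 3 to 5 and, without day 0 replicate 3 or day 8 replicate 2 or 3, to values within its range of -0.018 to 0.043 over single libraries left out. On the 3 TPM scales, Cdh11 reversed to 0.084, 0.085 and 0.085, Pcdhgc3 to 0.129, 0.131 and 0.131 and Ctnnb1 to 0.064, 0.064 and 0.064, and Pcdhb8 to 0.001 on log2(TPM + 1) alone. Dnmt3a reversed to -0.049 with library size alone, -0.003 without day 8 libraries 3 to 5 and -0.004 without day 0 libraries 1 to 3, where Pcdhgc3 stood at 0.05. With single libraries left out, Pcdhgc3 ran from -0.051 to 0.014 and Dnmt3a from -0.002 to 0.043. The cause was not tested. Cdh23, Pcdh15 and Pcdh11x rest on 1 to 33 counts per library, which limits their precision.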
